A study of Arabidopsis thaliana with 2 samples.

Results

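Aquaporins are membrane channels of the major intrinsic protein family that let water, and in many cases small uncharged solutes, cross membranes. The Arabidopsis thaliana family has 4 subfamilies. Plasma membrane intrinsic proteins (PIPs) carry much of the water that enters and leaves a plant cell, tonoplast intrinsic proteins (TIPs) sit in the vacuolar membrane, NOD26-like intrinsic proteins (NIPs) move metalloids such as boric acid and arsenite besides water, and small basic intrinsic proteins (SIPs) lie in the endoplasmic reticulum. Water uptake, leaf hydraulics and the abundance of several aquaporin transcripts are known to follow a daily rhythm. LHY is a MYB-related transcription factor of the circadian clock, most abundant around dawn, that binds DNA and mostly represses its targets.

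The 35 aquaporin genes, 13 PIP, 10 TIP, 9 NIP and 3 SIP, were taken by their AGI locus identifiers from the 27444 nuclear protein-coding genes of the gene table. They were set against a list of 14718 regions from chromatin immunoprecipitation followed by sequencing (ChIP-seq) with an antiserum to full-length LHY. One library came from wild-type seedlings of the Ws accession and 1 control library from lhy-21, an LHY knockout in the same accession. Both came from whole seedlings aged 2 weeks and taken 2 h after dawn, with formaldehyde at 1% for 10 min as the cross-linker, and each library pooled 9 immunoprecipitations. A region marks sequence with more reads in the wild-type library than in the lhy-21 library. A region was given to a gene when its midpoint lay inside the gene or within 1000 bp of either end. The regions discussed here were thus chosen by the measured midpoints themselves, so their numbers and scores are a description and carry no test.

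With 1 library per genotype and 1 list, no value has a replicate check. Each region carries the authors' score, which ran from 2.00 to 213 over the list with a median of 10.1. Neither a scale for the score nor a read depth is given in the sources used here. Scores therefore serve to rank regions within the list, and a gene without a region is not shown to be unbound. In whole seedlings, strong binding in few cells and weak binding in many cannot be told apart. The gene table gives no strand, so the promoter side of a gene was not told from its downstream side, and ends are called lower or higher by coordinate.

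Of the 35 aquaporin genes, 20 (57.1%) had at least 1 region, against 43.2% of all protein-coding genes, and against 46.3% of the 19620 protein-coding genes whose length lies between those of the shortest and longest aquaporin gene (1100 and 4236 bp). At least 2 regions were found at 12 aquaporin genes (34.3%), against 14.8% of all protein-coding genes. This count depends on neighbouring regions being kept apart. Merging regions within 200 bp joined those of PIP2;1, PIP2;2, PIP2;6, TIP1;1 and TIP1;2 and left 29 regions in the family. The shares with at least 2 regions were not computed after merging. The 20 genes held 34 distinct regions and no region was in reach of more than 1 aquaporin gene. Gene spacing left almost no room for such sharing. The tandem pairs PIP2;2 with PIP2;3 and NIP4;1 with NIP4;2 stand 2612 and 1989 bp apart. The highest number at a single member was 4.

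The subfamilies differed in their counts. PIP genes had a region at 10 of 13 loci (76.9%), TIP genes at 5 of 10 (50.0%), NIP genes at 2 of 9 (22.2%) and SIP genes at 3 of 3. At least 2 regions lay at 6 PIP, 5 TIP, 0 NIP and 1 SIP genes, so each TIP gene with a region had more than 1 before merging. Merging within 200 bp left PIP2;1, PIP2;2, PIP2;6, TIP1;1 and TIP1;2 with a single region each. Median highest scores over genes with a region were 13.5 in the PIP, 27.8 in the TIP, 5.41 in the NIP and 22.6 in the SIP subfamily, and 14.2 over all 11856 protein-coding genes with a region. With so few genes per subfamily, and with genes that are not replicates, these differences were not tested.

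**Figure D1:**
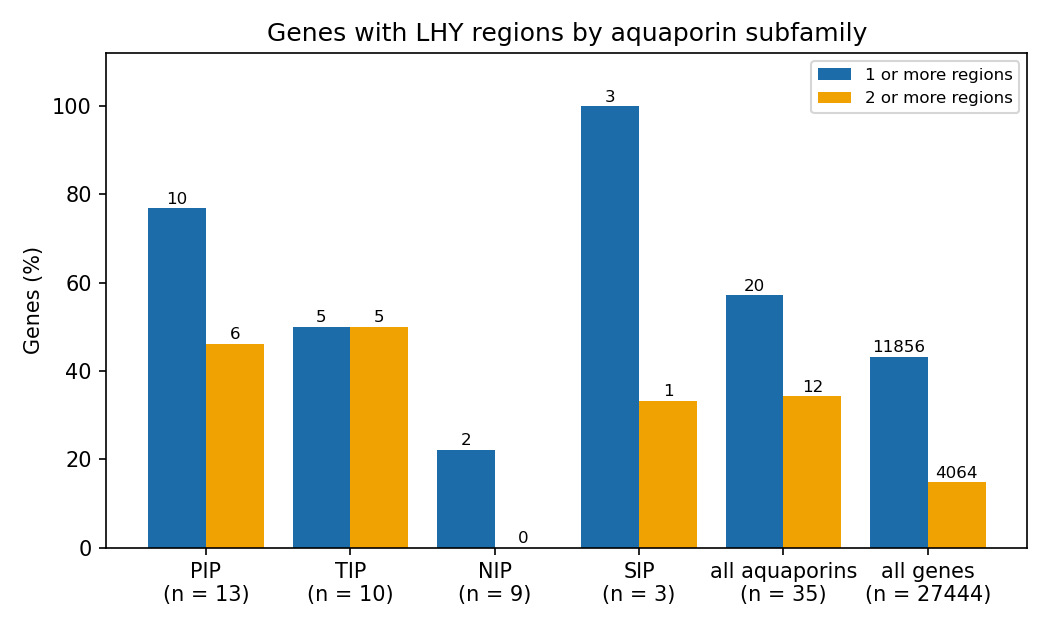
Percentage of genes (vertical axis) with 1 or more (blue) and 2 or more (orange) LHY regions in each aquaporin subfamily, in all 35 aquaporins and in all 27444 protein-coding genes, with the number of genes above each bar. PIP and SIP bars for 1 or more regions stand at 76.9% and 100%, and the NIP bar stands at 22.2%, against 43.2% for all genes.

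The median highest score of the 20 aquaporin genes was 14.2, equal after rounding to that of all genes with a region, and 10 of the 20 lay above the median of all genes with a region. A region above the list's median score lay at 12 of the 35 genes (34.3%), against 27.2% of all protein-coding genes. Only PIP2;5 reached the strongest 10% of regions (2.86% of the family, against 6.46% of all protein-coding genes). The 34 regions themselves had a median score of 7.48 and a median width of 244 bp, against 10.1 and 285 bp for the whole list.

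**Figure D2:**
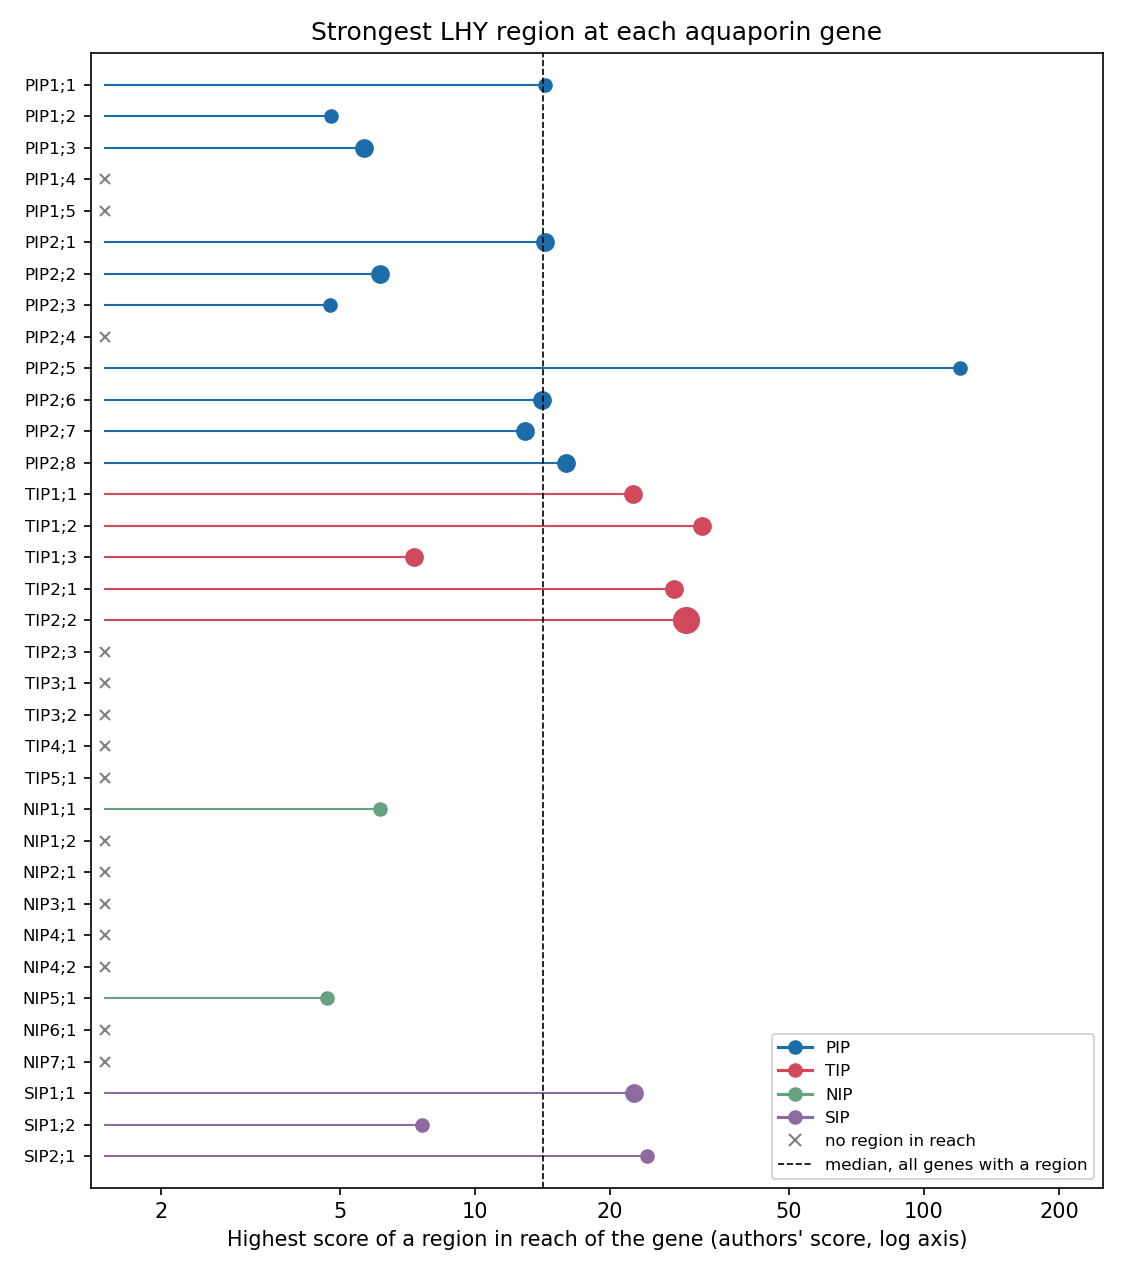
Highest authors' score (horizontal log axis) of a region in reach of each of the 35 aquaporin genes, coloured by subfamily, with larger points for more regions and grey crosses for genes with none. The dashed line marks the median of 14.2 over all protein-coding genes with a region, and the point at 120 is PIP2;5.

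Among the plasma membrane channels, PIP2;5 (AT3G54820) had the strongest region of the family. The gene is known for transcripts that rise in cold and drought. Its region, on chromosome 3 from 20303346 to 20304267 (TAIR9), scored 120 and ranked 88 of 14718. It stood at percentile 99.0 among the highest scores of all genes with a region. At 922 bp it was also the widest of the 34. It lay wholly within the gene, beginning 1587 bp from the lower end and stopping 42 bp short of the higher end, and no other protein-coding gene was in reach. The highest scores of the other 19 aquaporin genes with a region ran from 4.69 to 32.1.

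The remaining PIP2 genes had lower scores. PIP2;8 (AT2G16850) had regions at both ends, scored 16.0 on the lower side, 371.5 bp outside the gene, and 9.91 just inside the higher end. Its closest relative PIP2;7 (AT4G35100) had the same layout by coordinate. Its regions scored 4.09 at 313 bp outside the lower end and 13.0 at 199 bp inside the higher end. PIP2;1 (AT3G53420), a water channel of guard cells and roots that takes part in stomatal closure, had 2 regions outside its higher end, scored 5.70 at 217.5 bp and 14.3 at 569 bp. PIP2;6 (AT2G39010) had 2 regions inside the gene, scored 5.68 and 14.1, both wide at 894 and 721 bp.

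The tandem genes PIP2;2 (AT2G37170) and PIP2;3 (AT2G37180) stand 2612 bp apart on chromosome 2. AT2G37170, for a root water channel, had regions of 6.14 and 5.59 in the gap between both genes, 540 and 880 bp beyond its end. Another region in the gap, of 7.59 (chromosome 2, 15616266 to 15616558), lay 1390 bp from this gene and 1223 bp from its partner, beyond the limit for both. AT2G37180, first isolated as the desiccation-responsive gene RD28, had a single region of 4.76 inside the gene, also 338.5 bp outside AT2G37190. The coding sequences of this pair are nearly alike, and no source used here says how reads with several matches were treated. The split of signal between them is therefore uncertain. PIP2;4 (AT5G60660), a channel of roots, was the single PIP2 gene without a region, the nearest lying 4792.5 bp away with a score of 17.1. In all, 7 of 8 PIP2 genes had a region.

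PIP1 channels, which work largely in complexes with PIP2 partners, had a region at 3 of 5 genes, all of low or middling score. PIP1;1 (AT3G61430) had 1 of 14.3, 723 bp outside the gene and closer, at 368 bp, to AT3G61420. PIP1;2 (AT2G45960), which has been linked to membrane passage of carbon dioxide, had 1 of 4.78, inside the gene 67.5 bp from its higher end and 180.5 bp outside CYP86A8, a fatty acid hydroxylase of the cuticle pathway. PIP1;3 (AT1G01620) had 2 regions, of 5.66 and 3.32, within 56 bp of either end. A further region of 12.9 was centred 1148 bp beyond the higher end, and counting any overlap in place of the midpoint gave it to this gene. PIP1;4 (AT4G00430) and PIP1;5 (AT4G23400) had none, with the nearest region 1232.5 and 13071.5 bp away. Counting any overlap also gave PIP1;4 its nearest region, which scored 39.6.

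Among the vacuolar channels, the regions lay at genes of the TIP1 and TIP2 groups, which include major tonoplast water channels of vegetative tissue. TIP1;2 (AT3G26520) had the second highest score of the family, 32.1, at 376 bp outside the lower end (chromosome 3, 9721881 to 9722253). A weaker neighbour of 5.13 lay at 705 bp on the same side. TIP1;1 (AT2G36830), also known as GAMMA-TIP, a major tonoplast channel of vegetative tissue, had the same arrangement, with 22.5 at 37 bp (chromosome 2, 15444990 to 15445524) and 4.28 at 548 bp outside the lower end. TIP1;3 (AT4G01470), a channel of the pollen vacuole, had 2 regions on the lower side as well, but at 7.32 and 5.62. The 2 regions of TIP1;1, and likewise those of TIP1;2, lay within 200 bp of each other and were joined by merging. Before merging, all 3 TIP1 genes had 2 regions, all 6 of them outside the lower end by coordinate. Since strand is not given, this need not be the promoter side, nor the same side of each gene.

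TIP2 genes encode channels that pass ammonia as well as water. TIP2;2 (AT4G17340) had 4 regions, the most in the family. They scored 29.5, 4.36, 2.85 and 25.5 in order along chromosome 4, from 866 bp before the lower end (9697950 to 9698198) to 30 bp past the higher end (9700310 to 9700694). The first 2 were also in reach of AT4G17330, and the region of 29.5 lay closer to that gene, at 368 bp. The last was also in reach of AT4G17350. TIP2;1 (AT3G16240), known as DELTA-TIP, had 27.8 at 677.5 bp outside the lower end (chromosome 3, 5504449 to 5504916). A second region of 12.4 outside its higher end had its midpoint inside PnsB3, a subunit gene of the chloroplast NDH complex. TIP2;3 (AT5G47450) had none, and the nearest region, at 6874.5 bp, scored 36.5.

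The other 4 TIP genes had no region within 1000 bp. TIP3;1 (AT1G73190) and TIP3;2 (AT1G17810), the channels of seed protein storage vacuoles, were 6677 and 6206.5 bp from the nearest one. TIP4;1 (AT2G25810), a root channel that also passes urea, was 6783 bp away, and TIP5;1 (AT3G47440), of pollen, 1388 bp. The distances of TIP genes without a region therefore fell into 4 between 6206.5 and 6874.5 bp and 1 much shorter.

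NIP genes had few regions, all with low scores. NIP1;1 (AT4G19030), a channel through which arsenite enters roots, had a region of 6.14 at 824 bp outside its higher end. NIP5;1 (AT4G10380), the main boric acid channel of roots, had 1 of 4.69 inside the gene, 219.5 bp from the higher end. They ranked 10536 and 12132 of 14718. The boric acid channels NIP6;1 (AT1G80760) of shoot nodes and NIP7;1 (AT3G06100) of anthers had none, at 3190.5 and 1349 bp from the nearest region. Neither did NIP1;2 (AT4G18910), NIP2;1 (AT2G34390), a root channel induced by low oxygen, and NIP3;1 (AT1G31885), at 2040, 6769.5 and 11747.5 bp.

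NIP4;1 (AT5G37810) and NIP4;2 (AT5G37820), a pollen-expressed tandem pair 1989 bp apart, were the farthest from any region, at 27433 and 32321 bp. Within 50 kb of the centre of each there were 4 regions and 14 other protein-coding genes. Around AT4G10380, which did have a region, 3 further regions were found, its own left out. With the regions of each gene itself left out throughout, NIP genes had a median of 14 regions within 50 kb, TIP genes 16, PIP genes 15 and SIP genes 20, against 13 over all protein-coding genes. Across the family, the 20 genes with a region had a median of 15.5 such neighbours and the 15 without had 14. The part of this local density in the subfamily counts was not tested.

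All 3 SIP genes had a region, and 2 of these genes shared every region with a neighbour. SIP2;1 (AT3G56950) had 1 of 24.2 on chromosome 3 from 21078238 to 21078668, whose midpoint lay 156 bp inside the gene and 10 bp outside CRD1, the cyclase subunit gene of chlorophyll synthesis. SIP1;1 (AT3G04090) had 2, of 11.6 and 22.6, each with its midpoint within 5 bp of a gene end. The weaker was also 551 bp outside APY1, an apyrase, and the stronger (chromosome 3, 1073979 to 1074518) was in reach of no other protein-coding gene. SIP1;2 (AT5G18290) had 1 of 7.64, deep inside the gene at 1129.5 bp from the nearest end and 534.5 bp outside NAC088.

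**Figure D3:**
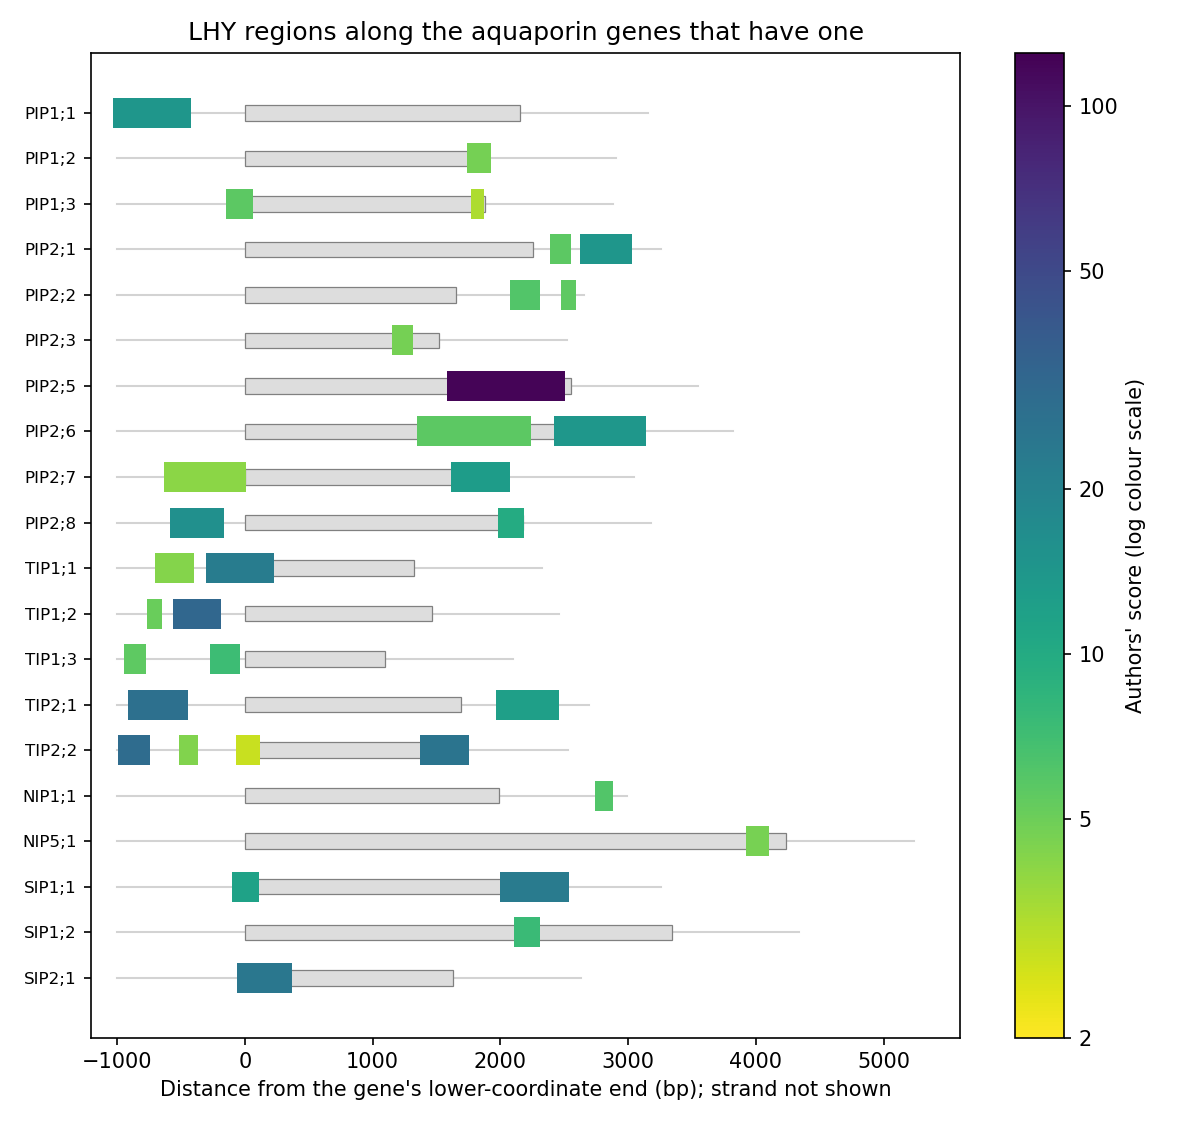
Position of the 34 regions along the 20 aquaporin genes that have one, as distance in bp from the gene's lower-coordinate end. Grey boxes are genes, thin lines the 1000 bp on either side, and coloured boxes are regions with the authors' score on a log colour scale. TIP regions lie mostly outside the gene and PIP regions often on its higher-coordinate part, with the dark box of AT3G54820 at 120.

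The position of regions relative to the gene varied between subfamilies. Of the 34 regions, 13 (38.2%) had their midpoint inside the aquaporin gene, against 29.9% of the 17474 pairs of region and protein-coding gene. Counted by gene, 12 of 35 aquaporin genes (34.3%) had a midpoint inside, against 16.1% of all protein-coding genes. The 16 PIP regions were split into 8 inside and 8 outside, whereas 1 of 12 TIP regions was inside. SIP genes had 3 of 4 inside and NIP genes 1 of 2. Midpoints within 200 bp of a gene end made up 38.2% for aquaporins and 43.7% for all protein-coding genes. Outside regions were centred a median of 523.5 bp from the aquaporin gene, against 309 bp over all pairs.

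Regions on both sides of the gene's centre were found at 6 aquaporin genes (17.1%), against 9.00% of all protein-coding genes. These were AT1G01620, AT4G35100 and AT2G16850 of the PIPs, the TIP2 genes AT3G16240 and AT4G17340, and AT3G04090 of the SIPs, named after their values were seen. For 12 of the 34 regions (35.3%) another protein-coding gene was also in reach, against 40.6% of all regions in reach of a gene. At 5 aquaporin genes every region was shared in this way, namely AT3G61430, AT2G45960, AT2G37180, AT5G18290 and AT3G56950. The same share over all genes with a region was not computed. The owner of a shared region was not determined. No midpoint among the 34 lay inside an annotated non-coding RNA gene, but the share over the whole list was not computed.

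Close paralogs differed in some cases. The 11 pairs of most similar genes were listed from known family trees after the values had been seen. Both members had a region in 5, a single member in 4 and neither in 2. Of all aquaporin genes 57.1% had a region, and no share over other gene pairs was computed, so these counts have no background beside them. The split pairs, each with the gene that had a region named first, were AT1G01620 with AT4G00430 of PIP1, AT4G17340 with AT5G47450 of TIP2, AT4G19030 with AT4G18910 of NIP1, and AT4G10380 with AT1G80760, the boric acid channels of roots and of shoot nodes. The PIP1 split held only under the midpoint rule. Counting any overlap gave AT4G00430 a region of 39.6, a higher score than any at AT1G01620. In TIP2 the contrast was 4 regions at AT4G17340 and none within 6874.5 bp of AT5G47450. The pairs AT2G36830 with AT3G26520 of TIP1, and AT4G35100 with AT2G16850 of PIP2, had the same number of regions on the same coordinate sides. Strand is not given, so these need not be the same sides relative to transcription.

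**Figure D4:**
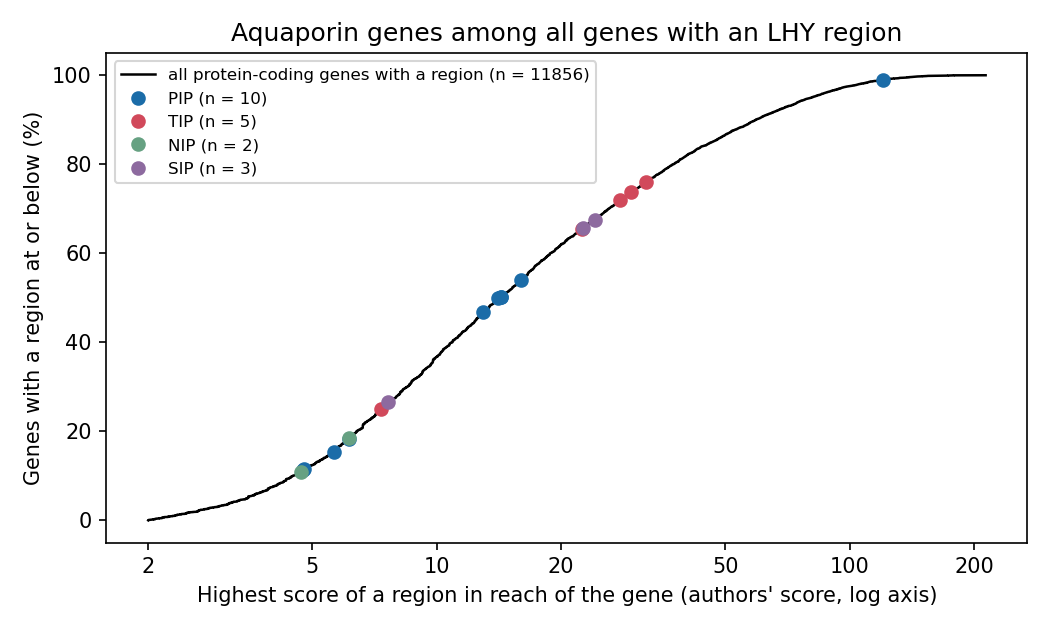
Cumulative percentage (vertical axis) of the 11856 protein-coding genes with a region by their highest authors' score (horizontal log axis), with the 20 aquaporin genes as points coloured by subfamily. TIP points reach 32.1, 9 PIP points lie at or below 16.0, both NIP points lie near the low end, and the remaining PIP, AT3G54820, is near the top of the curve.

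The 1000 bp limit bore on many members. With 500 bp, 4 of the 20 genes lost their regions and 2 more had a lower highest score, and with 3000 bp 4 genes gained a region and 7 more had a higher highest score. Just inside the limit were regions of AT2G37170 (PIP2) at 880 bp, AT4G17340 (TIP2) at 866 bp, AT4G01470 (TIP1) at 858 bp and AT4G19030 (NIP1) at 824 bp. Just outside were, among genes with a region, AT3G53420 (PIP2) at 1089.5 bp, AT1G01620 (PIP1) at 1148 bp and AT2G39010 (PIP2) at 1207 bp, with scores of 4.32, 12.9 and 7.02. Among genes with none they were AT4G00430 (PIP1), with a region of 39.6 centred 1232.5 bp away (chromosome 4, 188624 to 189201) and no other protein-coding gene within 1000 bp of it, and the anther and pollen genes AT3G06100 and AT3G47440, with nearest scores of 2.59 and 6.74. Between 1000 and 3000 bp, 30 further regions lay near the family, and 11 aquaporin genes had none within 3000 bp.

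Genes that act with aquaporins were examined in 4 lists, chosen with earlier results of these data known, so their shares carry no test. Aquaporin trafficking and phosphorylation had a region at 10 of 11 genes, against 43.2% of all protein-coding genes, with a median highest score of 23.6. With the nearest gene only, 9 genes kept a region, against 32.6% of all protein-coding genes. The ubiquitin ligase RMA1, of a family that retains PIP2 proteins in the endoplasmic reticulum, scored 83.4, and its relatives RMA3 and RMA2 scored 29.2 and 16.5. Among kinases, the co-receptor BAK1 had 61.3, the calcium-dependent CPK7 had 45.4 and OST1, which phosphorylates a PIP2 in guard cells, had 39.2 as the highest of 5 regions. AT3G02880 and the sucrose-induced receptor kinase SIRK1 had 18.1 and 8.59. TSPO, which directs a PIP2 to degradation, had 14.4, and the syntaxin SYP121, which delivers PIPs to the plasma membrane, had 6.12. Its partner SYP61 had none. Except at RMA1 and RMA2, at least 1 region of each of these 10 genes was also in reach of another protein-coding gene.

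The 3 transport lists, with few genes each, stood below the background share at 36.4%, 33.3% and 33.3%. This order depended on the flank. With 3000 bp, 6 of 11 proton pumps, 5 of 6 Shaker channels and 2 of 3 boron exporters had a region, against 60.3% of all genes. The Shaker and boron lists then stood above the background. Plasma membrane proton pumps, which energise solute uptake, had a region at 4 of 11 genes. AHA3 had 51.6, and the main pumps AHA2 and AHA1 had 12.7 and 8.53 as the highest of 4 regions each, while AHA7 had 6.22. Shaker potassium channels, which with aquaporins set guard cell and root turgor, had a region at 2 of 6 genes, the outward channel GORK with 40.1 and AKT2 with 8.40. Of 3 boron exporters, BOR1, which loads boron into the xylem after its entry through the boric acid channel of roots, had a region of 43.8, and BOR2 and BOR4 had none. The channel gene itself, AT4G10380, had 4.69.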

How the data were processed

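The TAIR9 genome, Bowtie and MACS2 (version 2.0.10.09132012) are named in the submitters' processing notes. The deposited file is 1 list of regions with a start, an end and the authors' score, and per the labels regions are those with more reads in wild type than in lhy-21. Filters, thresholds and depth are not given in the sources used here. Genes came from a RefSeq table of assembly TAIR10.1 (Columbia), matched by locus for all 35 members. TAIR9 and TAIR10 share their nuclear chromosome sequences, but gene models may differ, so no gene coordinates are printed. Region positions are counted from 1. The assignment recovered planted regions on simulated data, placed around the lower end of genes only. Regions near the higher end and regions given wrongly to a gene were not checked. Analysis used Python 3.11.15, pandas 2.3.3 and matplotlib 3.10.9. Every member is named, and the 4 related lists held 31 genes. The members and lists were chosen with earlier results of these data known, and the pairs, the comparison of both sides of a gene's centre and the 50 kb counts (without the regions of the gene itself) after the values were seen. The planned motif search and sequences were left out, since no sequence was used here. Alternatives were flanks of 500 and 3000 bp, any overlap of 1 bp, the nearest gene, score limits and merging within 200 bp.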

Additional observations from a re-analysis of the deposited data

How the results depend on the processing

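No paired analysis was possible because there is 1 library per genotype and 1 list. Of 88 summary values under alternatives, 49 stayed within 1.5 times (counts) or equal (median score) and 39 moved. With a 500 bp flank 16 aquaporin genes had a region, against 36.5% of all genes. NIP fell to 1, boron exporters to 0, and the median highest score was 13.5. With 3000 bp there were 24 genes (against 60.3%) and 64 regions, with NIP 4, Shaker channels 5, boron exporters 2 and a median score of 20.4. Any overlap gave 21 genes (against 45.0%, median score 14.3) and the nearest gene only gave 19 (against 32.6%, median score 14.1). Above the median score there were 12 aquaporin genes and 15 regions (PIP 6, NIP 0, proton pumps 2, Shaker channels 1, median score 22.5). The strongest 10% and the 1000 strongest regions each left 1 gene (2.86%, against 6.46% and 4.51% of all genes), 1 region and 1 PIP (median score 120), with 0 for TIP, NIP, SIP, Shaker channels and boron exporters and 2 for trafficking and phosphorylation. Proton pumps then counted 1 and 0. Merging kept 20 genes and left 29 regions. With the nearest gene only, PIP1;1 lost its region and the highest score of TIP2;2 fell from 29.5 to 25.5.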

Other observations

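Some aquaporin genes had regions of higher score between 1000 and 3000 bp. NIP1;2 (AT4G18910), with none within 1000 bp, had a region of 40.9 centred 2040 bp from its higher end on chromosome 4 from 10370266 to 10370834, which was within 1000 bp of AT4G18920 and AT4G18930. PIP2;6 had 1 of 35.4 at 2095.5 bp, near AT2G39000. TIP1;3 had 1 of 26.5 at 2303 bp, near PPa5, a soluble pyrophosphatase gene. SIP2;1 had 1 of 51.5 at 1985 bp, again within 1000 bp of CRD1. NIP7;1 and TIP5;1, also with none within 1000 bp, had regions of 16.9 at 2096.5 bp and 19.5 at 2357.5 bp. Beyond PIP2;1, 3 more regions of 3.71, 14.1 and 4.57 continued on the higher side out to 2087 bp, none of them within 1000 bp of a protein-coding gene. Which gene any of these regions belongs to was not determined.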
